A study of Mus musculus with 6 samples.

Results

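Complexes III and IV form the terminal part of the mitochondrial respiratory chain. The 40 nuclear genes described here encode their subunits, cytochrome c and factors that assemble them; they were taken by symbol from a named list, and all 40 were among the 26214 genes of the count files. By role they were 9 subunits of complex III, cytochrome c (Cycs), 14 subunits of complex IV including the tissue isoforms, the supercomplex factor Cox7a2l, 12 assembly factors of complex IV and 3 of complex III.

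Complex III takes electrons from ubiquinol and passes them to cytochrome c, a small soluble carrier, and complex IV (cytochrome c oxidase) hands them to oxygen. Both complexes pump protons, and in brown fat the proton gradient is dissipated as heat by the uncoupling protein UCP1. Several complex IV subunits come as tissue isoforms, a form found widely and a form of heart and skeletal muscle that brown fat is also known to use. The catalytic core of complex IV (the Co1, Co2 and Co3 genes) and the cytochrome b of complex III (Cytb) are encoded in mitochondrial DNA. Of those genes, 0 were matched in the count files, so they were not analysed here.

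RNA was sequenced from an immortalized line of mouse brown preadipocytes after differentiation in culture with insulin and T3, which followed an induction mix that also held IBMX, dexamethasone and indomethacin. On day 7 the cultures were given 100 nM rotenone, which blocks complex I and so acts upstream of complexes III and IV, or the solvent DMSO, for 16 h; all groups share the line and the differentiation agents. Each group had 3 deposited files, but the 3 rotenone files differed in 0 genes, which is less than sampling noise, and were counted as 1 sample. The comparisons below thus set 1 rotenone library against 3 DMSO libraries, whose spread is the only source of error. It was assumed that rotenone libraries would vary as the DMSO libraries did, and the difference has no replicate check on the rotenone side. Nothing in the labels says that the DMSO libraries came from separate cultures, so the spread behind the p-values may be technical only.

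Total counts were 26085061 to 29194179 in DMSO and 21611589 with rotenone, so that a gene with 0 counts could still stand at 0.103 to 0.139 CPM (counts per 1000000 counts), a limit that covers counting error only. Markers were read against the label. Adipocyte markers were abundant (12 of 12 measured, summed level 13600 to 14700 CPM in DMSO and 13100 CPM with rotenone, 2 higher and 6 lower), and Ucp1 stood at 54.7 to 74.3 CPM in DMSO and 18.5 CPM with rotenone, whereas the brown fat deiodinase gene Dio2 was at 0 to 0.236 CPM in DMSO and at 0 with rotenone. The brown adipocyte list, which holds Ucp1, Cox7a1 and Cox8b, summed to 1580 to 1760 CPM in DMSO and 1350 CPM with rotenone; 3 of its 9 tested genes were higher and 4 lower. Among the adipocyte markers, Cebpa and Lipe fell most (log2 fold change -2.31 and -1.88), Lpl rose by 0.53, and Fabp4, the most abundant, did not pass. Preadipocyte and fibroblast markers summed to 2750 to 3030 CPM in DMSO and to 8030 CPM with rotenone, with 10 of 14 tested members higher and 1, Pdgfra, lower (-1.11). Of all tested genes, 27.6% were higher and 28.5% lower. Macrophage markers summed to 2.67 to 3.59 CPM against 15.7 CPM, nearly all of it Cd68, while Adgre1 and Ptprc were at 0. Endothelial markers summed to 6.61 to 7.60 CPM against 13.2 CPM, most of it Eng and Egfl7, while Pecam1 did not pass. Their part in the results below was not tested. In a bulk sample, fewer cells of a type and less RNA per cell cannot be told apart.

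The promoters of a few members are shown: the tissue isoform partners whose windows the reference held, and a complex III subunit that rose (Uqcrc1) beside the one that fell (Uqcrh). Sequences are RefSeq windows on GRCm38.p6, read 5′ to 3′ along the gene's strand, from 250 bases before to 50 bases after the annotated start. Capitals mark matches, on either strand, to the motif of nuclear respiratory factor 1 (NRF1, the letters GCGCA, any base and GCGC) or of the GA-binding protein GABP, also called NRF2 (CCGGAAG); YY1 (AAGATGGCG) and the estrogen-related receptors (ERR, TCAAGGTCA) were also searched. None of these motifs overlapped in a printed window.
Cox6a1, chr5:115348909-115349208, minus strand: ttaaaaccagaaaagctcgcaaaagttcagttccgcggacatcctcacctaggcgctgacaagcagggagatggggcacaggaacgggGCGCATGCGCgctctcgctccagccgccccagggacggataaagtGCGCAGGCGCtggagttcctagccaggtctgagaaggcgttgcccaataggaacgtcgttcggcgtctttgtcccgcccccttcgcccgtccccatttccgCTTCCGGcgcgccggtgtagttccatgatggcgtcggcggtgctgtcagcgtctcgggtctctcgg
Cox7a1, chr7:30183921-30184220, plus strand: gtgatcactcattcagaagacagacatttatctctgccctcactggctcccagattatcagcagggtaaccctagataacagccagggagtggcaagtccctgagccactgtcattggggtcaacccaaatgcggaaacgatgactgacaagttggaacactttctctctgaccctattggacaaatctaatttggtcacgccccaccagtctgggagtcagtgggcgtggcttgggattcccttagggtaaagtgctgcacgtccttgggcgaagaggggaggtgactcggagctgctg
Cox7a2, chr9:79759804-79760103, minus strand: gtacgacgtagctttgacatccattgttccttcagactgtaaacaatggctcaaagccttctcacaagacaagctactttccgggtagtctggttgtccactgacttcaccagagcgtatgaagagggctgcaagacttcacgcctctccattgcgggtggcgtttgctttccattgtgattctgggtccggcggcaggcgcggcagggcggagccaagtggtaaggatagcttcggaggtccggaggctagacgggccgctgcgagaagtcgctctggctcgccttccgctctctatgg
Cox8a, chr19:7217567-7217866, minus strand: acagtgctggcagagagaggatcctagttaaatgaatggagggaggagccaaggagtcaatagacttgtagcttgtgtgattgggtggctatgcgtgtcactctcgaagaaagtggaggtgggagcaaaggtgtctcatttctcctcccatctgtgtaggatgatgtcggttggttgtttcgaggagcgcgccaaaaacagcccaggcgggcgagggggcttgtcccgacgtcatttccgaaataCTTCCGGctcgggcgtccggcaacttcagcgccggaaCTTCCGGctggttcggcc
Cox8b, chr7:140900397-140900696, minus strand: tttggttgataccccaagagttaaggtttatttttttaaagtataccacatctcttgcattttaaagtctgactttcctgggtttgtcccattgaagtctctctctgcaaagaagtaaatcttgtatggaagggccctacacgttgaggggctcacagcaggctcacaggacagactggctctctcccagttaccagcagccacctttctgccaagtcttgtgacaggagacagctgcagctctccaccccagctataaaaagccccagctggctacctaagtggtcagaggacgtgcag
Uqcrc1, chr9:108936398-108936697, plus strand: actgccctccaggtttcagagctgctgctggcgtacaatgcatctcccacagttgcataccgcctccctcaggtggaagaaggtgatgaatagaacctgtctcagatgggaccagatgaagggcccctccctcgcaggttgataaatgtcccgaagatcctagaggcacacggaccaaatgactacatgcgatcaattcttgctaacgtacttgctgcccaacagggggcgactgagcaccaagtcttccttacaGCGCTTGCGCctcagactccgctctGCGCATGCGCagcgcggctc
Uqcrh, chr4:116075021-116075320, minus strand: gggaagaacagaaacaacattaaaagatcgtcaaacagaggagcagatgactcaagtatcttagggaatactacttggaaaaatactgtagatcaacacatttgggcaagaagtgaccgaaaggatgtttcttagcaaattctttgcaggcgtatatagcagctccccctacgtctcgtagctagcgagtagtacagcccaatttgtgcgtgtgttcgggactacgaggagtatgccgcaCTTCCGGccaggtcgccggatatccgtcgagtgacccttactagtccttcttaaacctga

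Windows were available for 31 members. The GABP motif was in 13 of them, against 19.0% of the 11418 tested genes with a window and 8.86% of all 32851 windows. By call, it was in 6 of 18 members that rose, 3 of 4 that fell and 4 of 9 that did not pass the threshold; by role, in 5 of 17 subunits and 8 of 13 assembly factors. The NRF1 motif was in 2 members, Cox6a1 and Uqcrc1, with 2 matches each, against 10.9% of tested genes and 4.60% of all windows. The YY1 motif was in 1 member, Cox10, against 3.26% of tested genes and 1.40% of all windows, and the ERR motif in 0 members, against 0.315% and 0.423%. The widely expressed partners Cox6a1 and Cox8a held GABP letters, and Cox7a1, Cox7a2 and Cox8b held none of the searched letters. Among the other complex III subunits that rose and had a window, Uqcr11 held the GABP motif. Uqcr10 and Uqcrfs1 held none of the searched letters. A match describes letters in these windows, not a bound site, and Uqcrh, which fell, and Cox8a, which rose, both held the GABP motif.

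In the main fit, transcripts of the subunits were modestly and almost uniformly higher with rotenone, and those of the assembly factors went in both directions. With scaling by library size only, the calls for the subunits Uqcrfs1, Uqcr11, Cox6c, Cox7a1, Cox7a2, Cox8a and Cox8b were lost. Of the 40 members, 27 rose and 4 fell at an adjusted p under 0.05 in edgeR's quasi-likelihood test, where 27.6% of all 14709 tested genes rose and 28.5% fell. With scaling by library size only, 20 members rose and 6 fell, against 3245 and 5153 of all tested genes in place of 4054 and 4197. In either direction 56.1% of all tested genes passed. The rotenone level lay outside the DMSO range for 35 of the 40 members, against 86.2% of all tested genes. All 40 passed the filter on low counts. Among the 24 subunits with cytochrome c, 22 rose and 2 fell, and among the 15 assembly factors 5 rose and 2 fell. The median log2 fold change (rotenone minus DMSO) was 0.28 over the members, 0.31 over the subunits and 0.08 over the assembly factors, beside -0.04 over all genes tested. Most changes were small: 6 of the 27 rises and 2 of the 4 falls reached 1.5-fold. Summed over the members, the level went from 17600 ± 260 CPM (SD, n = 3) to 22800 CPM. The biological coefficient of variation in this fit was 6.9%. With 20% assumed for every gene, 2 members rose (Cox6a2 and Cox18) and 0 fell in edgeR's likelihood ratio test, where 9.57% of all genes rose and 14% fell. At an unadjusted p under 0.05 in that test, 3 members were higher and 1 was lower, and the share of all tested genes at that cut is not given here. With DESeq2, whose spread came from the same libraries, 39 members kept their sign and side of the threshold, and Cox20 turned sign.

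**Figure D1:**
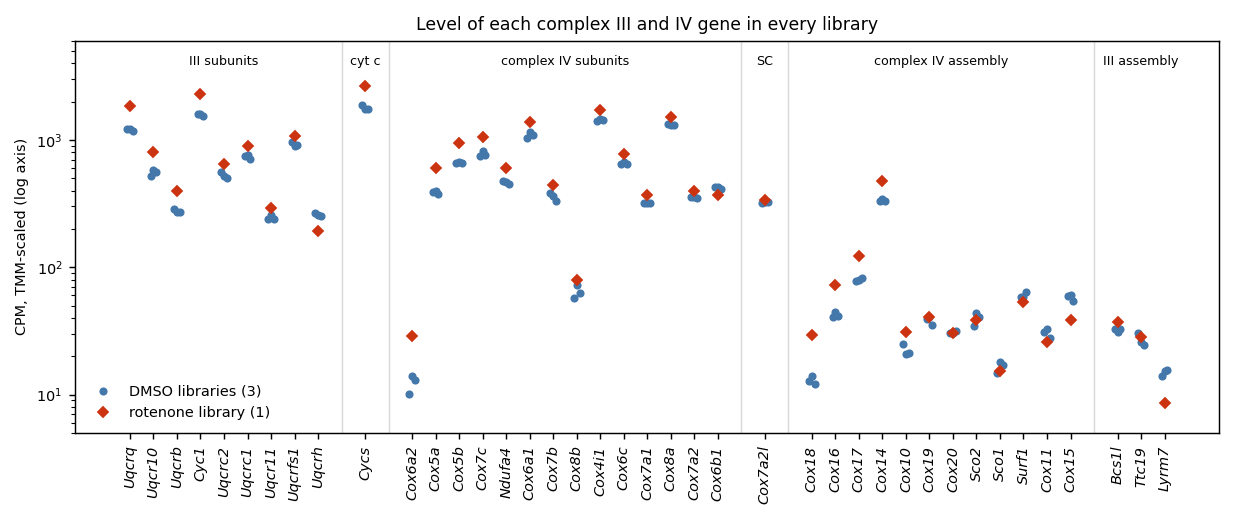
Level of each of the 40 genes in every library, in TMM-scaled CPM on a log axis, grouped by role; the narrow group marked SC is the supercomplex factor Cox7a2l. Blue circles are the 3 DMSO libraries and red diamonds the rotenone library, which lies above the DMSO libraries for most subunits and below them for Uqcrh, Cox6b1, Cox15, Lyrm7, Surf1 and Cox11, of which Surf1 and Cox11 did not pass the threshold.

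**Figure D2:**
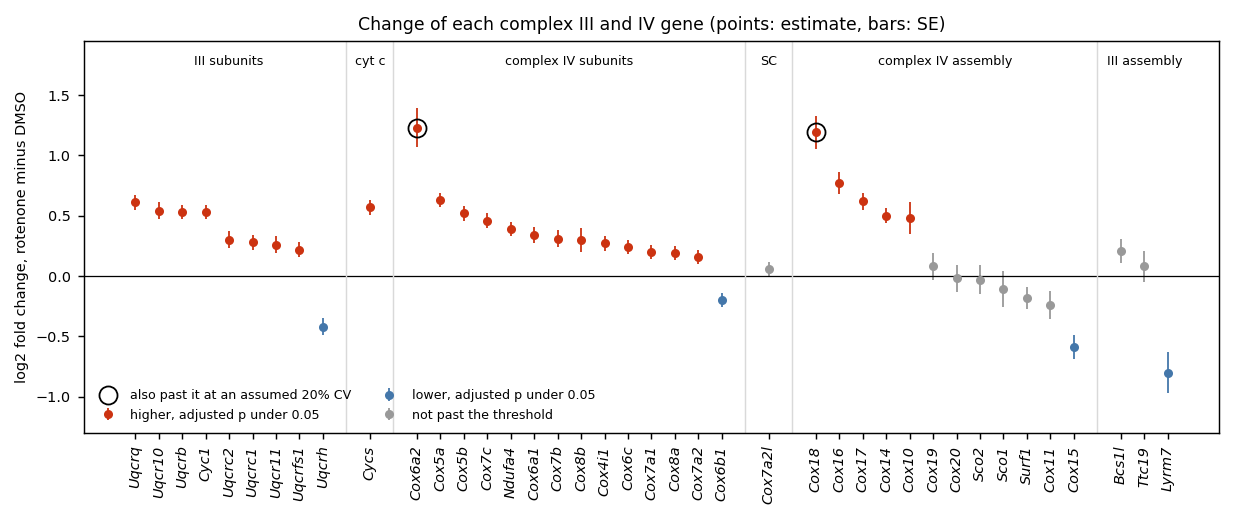
Log2 fold change of each gene, rotenone minus DMSO, with its standard error, by role. Red points rose and blue points fell at an adjusted p under 0.05, grey points did not pass, and rings mark Cox6a2 and Cox18, which passed with an assumed coefficient of variation of 20%.

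The rise has to be read beside general trends of the rotenone library with transcript length and level. The median log2 fold change of all tested genes fell from 0.24 in the shortest length decile (transcripts up to 1188 bp) to -0.27 in the longest, and single DMSO libraries lay between -0.03 and 0.04 of the others in these deciles. In the shortest decile 35.8% of genes rose and 11.9% fell; 19 members, 15 of them subunits, were in it. By level, 24 members were in the highest decile (over 127 CPM), where the median of all genes was 0.20. With an offset for transcript length and GC content in the same fit, 20 members rose and 7 fell, against 28.6% and 26.3% of all genes, and the median of the members was 0.16. Under that offset 15 subunits rose and 2 fell, and 5 assembly factors rose and 4 fell. How much of the rise follows these trends was not tested further.

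**Figure D3:**
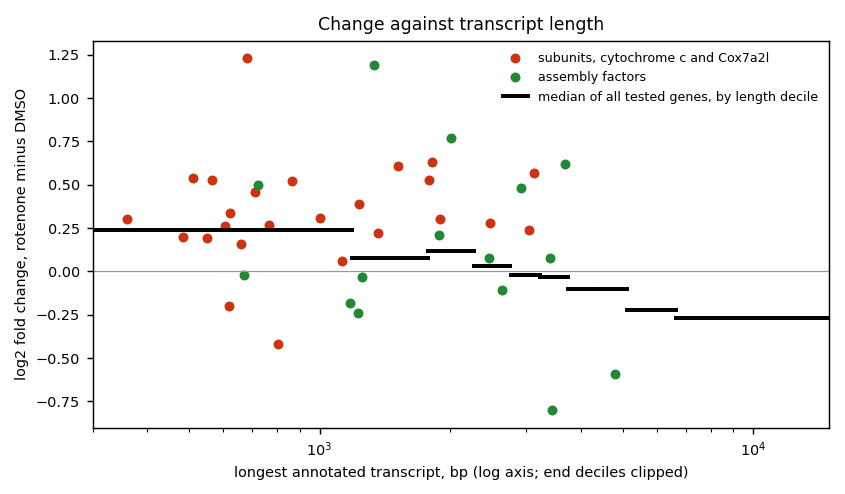
Log2 fold change of the members against the length of their longest annotated transcript on a log axis, subunits with cytochrome c and Cox7a2l in red, assembly factors in green. Black bars are medians of all tested genes in each length decile, which run from 0.24 for the shortest to -0.27 for the longest; Uqcrh, Cox6b1, Cox7a1, Cox7a2, Cox8a and Cox7a2l lie below the bar of their decile and the other subunits at or above it.

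Complex III subunits rose in 8 of 9 cases and the exception fell, where 27.6% of all tested genes rose and 28.5% fell. Uqcrq, a small subunit of the membrane part, had 1220, 1220 and 1180 CPM in DMSO replicates 1, 2 and 3 and 1840 CPM with rotenone. The rotenone value lay above all DMSO values, a rise of 0.61 ± 0.06 (log2 fold change ± SE, adjusted p = 6.9e-08). Uqcr10, another small subunit, had 522, 577 and 561 CPM in DMSO and 802 CPM with rotenone, and rose by 0.54 ± 0.07 (adjusted p = 1.3e-06). For both genes the groups did not overlap, as for 86.2% of all tested genes. Uqcrb, the ubiquinone-binding protein, had 284, 271 and 270 CPM in DMSO and 396 CPM with rotenone, and rose by 0.53 ± 0.06 (adjusted p = 1e-06). Cyc1, the cytochrome c1 that donates electrons to cytochrome c, had 1600, 1610 and 1550 CPM in DMSO and 2300 CPM with rotenone, and also rose by 0.53 ± 0.06 (adjusted p = 4.3e-07). The other catalytic and core subunits moved less. The core proteins Uqcrc2 and Uqcrc1 rose by 0.30 ± 0.07 and 0.28 ± 0.06, the small subunit Uqcr11 by 0.26 ± 0.07, and Uqcrfs1, the Rieske iron-sulfur protein, by 0.22 ± 0.06. The calls for Uqcrfs1 and Uqcr11 were lost with scaling by library size, and that for Uqcr11 also with the length and GC offset.

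Uqcrh, the acidic hinge protein that helps cytochrome c1 meet cytochrome c, went the other way. Its levels were 265, 256 and 254 CPM in DMSO and 193 CPM with rotenone, below every DMSO library, where 86.2% of all tested genes lay outside the DMSO range. The fall was 0.42 ± 0.07 on the log2 scale (log2 fold change -0.42, adjusted p = 3.5e-05), or 25.1%, and the log2 fold change was -0.60 with the length and GC offset. Cytochrome c, the carrier between the complexes, rose: Cycs had 1870, 1750 and 1760 CPM in DMSO and 2660 CPM with rotenone, a rise of 0.57 ± 0.06 (adjusted p = 3e-07). Cycs has 16 annotated pseudogenes that match at least 80% of its coding sequence at 85% identity or more, and Uqcrh has 4. The treatment of reads shared with such copies is not stated in these sources, and the values of both genes are uncertain to that extent. The same holds for 14 other members with such pseudogenes. It also holds for Cox5b, Cox17 and Sco2, which each match 1 other gene not annotated as a pseudogene, at 99.2%, 100% and 100% identity.

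Complex IV subunits rose in 13 of 14 cases, where 27.6% of all tested genes rose, with a median log2 fold change of 0.31. With the length and GC offset 7 of the 14 rose, where 28.6% of all tested genes rose, and the median was 0.15. Outside the isoform pairs, the highest rises were those of Cox5a and Cox5b, which sit on the matrix side of the enzyme. Cox5a had 393, 399 and 379 CPM in DMSO and 605 CPM with rotenone, a rise of 0.63 ± 0.06 (adjusted p = 7.3e-08). Cox5b had 661, 666 and 659 CPM in DMSO and 946 CPM with rotenone, a rise of 0.52 ± 0.06 (adjusted p = 6.5e-07). For both genes the rotenone level exceeded the highest DMSO level by far more than the DMSO levels differed among themselves. A rotenone level outside the DMSO range was found for 86.2% of all tested genes. Cox7c rose by 0.46 ± 0.06 and Ndufa4, long assigned to complex I and now counted with complex IV, by 0.39 ± 0.06. Smaller rises were those of Cox7b (0.31 ± 0.07), Cox4i1 (0.27 ± 0.06), an early-assembling regulatory subunit, and Cox6c (0.24 ± 0.06). The calls for Cox7b and Cox4i1 were lost with the length and GC offset, and that for Cox6c with scaling by library size.

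Cox6b1, which faces the intermembrane space where cytochrome c docks, fell. Its levels were 423, 426 and 413 CPM in DMSO and 366 CPM with rotenone. That was below all DMSO libraries by a small margin, where 86.2% of all tested genes lay outside the DMSO range. The log2 fold change was -0.20 ± 0.06 (adjusted p = 0.012), and it was -0.46 with the length and GC offset. Cox7a2l, which joins complex III to complex IV in supercomplexes, did not pass the threshold: it had 319, 324 and 327 CPM in DMSO and 336 CPM with rotenone, with a log2 fold change of 0.06 ± 0.06 (adjusted p = 0.47), which turned to -0.06 with scaling by library size and to -0.16, past the threshold, with the length and GC offset.

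The 3 tissue isoform pairs differed in how much of the muscle form the cells held. Levels of different genes are compared here as CPM per kilobase of annotated exon. In DMSO, Cox6a2, the muscle form of subunit VIa, stood at 18.2 ± 3.0 CPM per kilobase (SD, n = 3) against 1560 ± 89 for its widespread partner Cox6a1, or 1.15 ± 0.14% of the pair. Cox8b made up 7.74 ± 0.86% of its pair with Cox8a, at 179 ± 20 against 2130 ± 22 CPM per kilobase. Cox7a1 was the more abundant partner of its pair, at 598 ± 3.2 CPM per kilobase against 377 ± 5.4 for Cox7a2, or 61.4 ± 0.46% of the pair. With the longest transcript in place of all exons, the log2 ratio of Cox7a1 to Cox7a2 in DMSO was 0.29 in place of 0.67.

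Cox6a2 and Cox18, the assembly factor for subunit II, had the highest log2 fold changes, 1.23 ± 0.16 and 1.19 ± 0.14, which did not differ beyond their errors. Their order turned without DMSO replicate 1 (1.11 and 1.18), and with the length and GC offset Cox16 (1.02) stood above Cox6a2 (0.97) and Cox18 (0.93). Cox6a2 had 10.1, 14 and 13.1 CPM in DMSO and 29.1 CPM (590 counts) with rotenone, above every DMSO library, a rise of 1.23 ± 0.16 (adjusted p = 2.5e-06). Cox6a1 had 1040, 1160 and 1090 CPM in DMSO and 1390 CPM with rotenone, and rose by 0.34 ± 0.07. For both partners the rotenone level lay outside the DMSO range, as for 86.2% of all tested genes. The share of Cox6a2 in the pair per kilobase was 0.994%, 1.23% and 1.23% in DMSO and 2.12% with rotenone. The log2 ratio of the partners was -6.43 ± 0.18 in DMSO (SD, n = 3) and -5.53 with rotenone, a difference of 0.90. The rotenone ratio lay outside the DMSO range; an exact two-sided permutation test gave p = 0.25, the smallest that 3 libraries against 1 allow. Cox6a2 shares 10.3% of its exon bases with Itgad on the opposite strand.

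In the other pairs the log2 ratio of the partners changed by 0.05 and 0.11. Cox7a1 had 319, 319 and 322 CPM in DMSO and 368 CPM with rotenone, a rise of 0.20 ± 0.06 (adjusted p = 0.01), and Cox7a2 had 358, 359 and 350 CPM against 396 CPM, a rise of 0.16 ± 0.06 (adjusted p = 0.044). Their log2 ratio was 0.67 ± 0.03 in DMSO and 0.72 with rotenone, a difference of 0.05 that lay just outside the DMSO range (exact two-sided permutation p = 0.25). The rises of both genes turned to -0.02 and -0.11 with the length and GC offset, and both calls were lost with scaling by library size. The call for Cox7a2 was also lost without DMSO replicate 2 (adjusted p = 0.053), without DMSO replicate 3 (adjusted p = 0.11) and with limma-voom (adjusted p = 0.053). Cox8b had 57.7, 72.1 and 63 CPM in DMSO and 79.1 CPM with rotenone, a rise of 0.30 ± 0.10 (adjusted p = 0.018). Cox8a had 1330, 1310 and 1310 CPM in DMSO and 1500 CPM with rotenone, a rise of 0.19 ± 0.06 (adjusted p = 0.012). The ratio of Cox8b to Cox8a was -3.58 ± 0.17 on the log2 scale in DMSO and -3.47 with rotenone, inside the DMSO range (exact two-sided permutation p = 0.75). The calls for Cox8a and Cox8b were lost with scaling by library size and with the length and GC offset.

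Skeletal muscle markers were measured beside the muscle isoforms. Myh1, Myh2, Myh4, Myh7, Myod1 and Myf5 were at 0 in all libraries, and the list summed to 53.3 to 56.4 CPM in DMSO and 50.4 CPM with rotenone, most of it Des; 1 of its 6 tested genes was higher and 2 were lower. Acta1, the skeletal actin, had 0.304, 0.138 and 0.225 CPM in DMSO and 6.65 CPM with rotenone. In the rotenone library, where Cox6a2 was highest, the listed Myh genes, Myod1 and Myf5 were thus undetected. In the same library Acta1 was higher (log2 fold change 4.87 ± 0.45). Tnnc1 and Des were lower (-1.38 ± 0.49 and -0.29 ± 0.09), and Tnnc2, Actn2 and the myosin light chain gene Mylpf did not pass. Mylpf stood at 0.101, 0.519 and 0.299 CPM in DMSO and 0.197 CPM with rotenone. Of all tested genes, 27.6% rose and 28.5% fell. The source of the Cox6a2 transcripts was not tested.

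**Figure D4:**
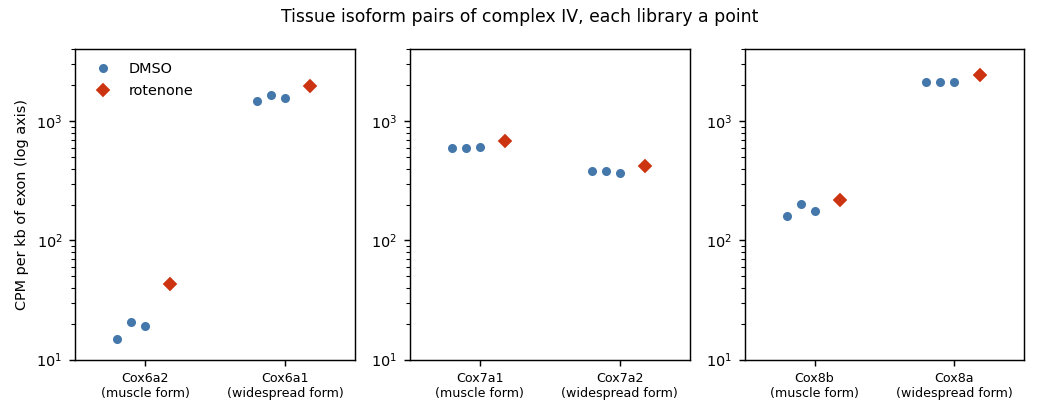
Levels of the 3 tissue isoform pairs of complex IV in CPM per kilobase of annotated exon, on a log axis, each library a point (blue circles DMSO, red diamonds rotenone). Cox6a2 and Cox8b lie well below Cox6a1 and Cox8a, Cox7a1 lies above Cox7a2, and Cox6a2 shows the widest gap between rotenone and DMSO.

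Assembly factors were far less abundant than subunits in CPM, summing to 841 ± 14 CPM in DMSO (SD, n = 3) and 1050 CPM with rotenone, and Cox14 alone made up 336 ± 5.8 CPM of the DMSO sum. Cox18, the insertase that moves the tail of subunit II across the inner membrane, had the highest log2 fold change among them. With the length and GC offset, however, it stood at 0.93 and Cox16 at 1.02. Its levels were 12.8, 14.1 and 12.1 CPM in DMSO and 29.6 CPM with rotenone, above every DMSO library, a rise of 1.19 ± 0.14 (adjusted p = 4.9e-07). Cox16, which acts with the copper chaperones on subunit II, had 40.9, 44.8 and 41.5 CPM in DMSO and 72.2 CPM with rotenone, and rose by 0.77 ± 0.09 (adjusted p = 5.9e-07). Cox17, the chaperone that hands copper to the other metallochaperones, had 78.6, 78.9 and 81.6 CPM in DMSO and 123 CPM with rotenone, and rose by 0.62 ± 0.07 (adjusted p = 5.3e-07). None of these groups overlapped, and the same held for 86.2% of all tested genes. Cox14, which accompanies newly made subunit I, rose by 0.50 ± 0.06 and Cox10, the farnesyltransferase that opens heme A synthesis, by 0.48 ± 0.13.

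Lyrm7 and Cox15 fell, both to levels outside the DMSO range, as for 86.2% of all tested genes. Lyrm7, the chaperone that holds the Rieske protein before its insertion into complex III, had 14.1, 15.2 and 15.6 CPM in DMSO and 8.57 CPM with rotenone. That level was below every DMSO library, with a log2 fold change of -0.80 ± 0.17 (adjusted p = 5e-04). Cox15, which completes heme A after Cox10, had 59.4, 60.9 and 54.3 CPM in DMSO and 38.7 CPM with rotenone, also below all DMSO libraries, and fell by 0.59 ± 0.10 (adjusted p = 4.3e-05). The successive enzymes of heme A synthesis thus had opposite signs, 0.48 for Cox10 and -0.59 for Cox15, and both kept them with scaling by library size and with the length and GC offset.

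The remaining 8 assembly factors did not pass the threshold. Surf1, whose loss impairs complex IV in human Leigh syndrome, had 58.2, 58.2 and 63.9 CPM in DMSO and 53.2 CPM with rotenone, with a log2 fold change of -0.18 ± 0.09 (adjusted p = 0.11). Cox11, a copper chaperone for subunit I, gave -0.24 ± 0.12 (adjusted p = 0.098). Both passed as lower with scaling by library size (-0.30 and -0.36) and with the length and GC offset (-0.44 and -0.46). The copper chaperones Sco1 and Sco2 gave -0.11 ± 0.15 and -0.03 ± 0.12, Cox19 gave 0.08 ± 0.11, and Cox20, which escorts subunit II, gave -0.02 ± 0.11; for Cox19, Cox20, Sco1 and Sco2 the rotenone level lay inside the DMSO range. In complex III assembly, Bcs1l, the AAA protein that inserts the Rieske protein, gave 0.21 ± 0.10 (adjusted p = 0.099), and Ttc19, which clears fragments of that protein, gave 0.08 ± 0.13. The signs of Cox19 and Ttc19 turned with scaling by library size, and the sign of Sco1 with the length and GC offset.

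Within copper delivery, then, Cox16 and Cox17 rose while Cox11, Cox19, Sco1 and Sco2 did not pass. Within the handling of the Rieske protein, the protein's own gene Uqcrfs1 rose slightly, its chaperone gene Lyrm7 fell, and Bcs1l and Ttc19 did not pass. Some of these counts may hold reads of other genes. Of their annotated exon bases, Cox20 shares 91.1% with Hnrnpu on the opposite strand, Cox11 48.3% with Tom1l1 on the opposite strand, Cox16 56.8% with Gm20498 on its own strand, and Sco2 68.3% with Tymp on its own strand and 66.2% with Ncaph2 on the opposite strand. The strand setting of the counting is not stated in these sources. Without these 4 genes, chosen after the data were seen, 26 members rose and 4 fell.

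Further genes of these complexes, 27 of 28 of them listed in the files, included genes that rose and genes that fell. Of 24 tested, 11 rose and 5 fell, shares of 45.8% and 20.8% beside 27.6% and 28.5% of all tested genes, with a median log2 fold change of 0.13. Uqcc2, which helps to make and stabilise cytochrome b, had 47.1, 50.8 and 46.2 CPM in DMSO and 108 CPM with rotenone, a rise of 1.17 ± 0.08 (adjusted p = 5.2e-10). Slirp, which protects mitochondrial messenger RNAs together with Lrpprc, rose by 1.02 ± 0.11, and Pet117 and Coa6, both complex IV assembly factors, by 0.88 ± 0.27 and 0.69 ± 0.11. Among those that fell, Higd1a, a small protein of complex IV known to be induced by hypoxia, had 225, 235 and 232 CPM in DMSO and 91.4 CPM with rotenone, a fall of 1.33 ± 0.07 (adjusted p = 2.7e-11). Tmem177, a partner of Cox20 in subunit II assembly, fell by 1.04 ± 0.14, Taco1, which activates translation of subunit I, by 0.85 ± 0.11, and Uqcc3 by 0.39 ± 0.11. Uqcc2 and Uqcc3, which act on the same subunit, thus had opposite signs. The hypoxic isoform gene Cox4i2 was barely detected, at 0.236, 0.381 and 0.412 CPM in DMSO and 0.0985 CPM (2 counts) with rotenone. Of the testis isoforms, Cyct, Cox7b2 and Cox8c were at 0 in all libraries. Cox6b2, another testis isoform, had 4.42, 3.25 and 3.37 CPM in DMSO and 3.35 CPM (68 counts) with rotenone.

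The copper and heme supply list holds copper handling genes and the ferredoxin genes with their reductase. Of its 7 genes, 4 rose, or 57.1%, beside 27.6% of all tested genes, and the other 3 did not pass. The median was 0.49, and 0.34 with the length and GC offset, where Slc31a1 also passed (0.19, adjusted p = 0.04) and 5 of the 7 rose. Fdx2, a mitochondrial ferredoxin, had 21.8, 20.9 and 23.7 CPM in DMSO and 43.4 CPM with rotenone, a rise of 0.97 ± 0.11 (adjusted p = 4.6e-07). The cytosolic copper chaperone gene Atox1 rose by 0.80 ± 0.08, Slc25a3, which carries phosphate and copper into mitochondria, by 0.57 ± 0.06, and the ferredoxin reductase gene Fdxr by 0.49 ± 0.14. The plasma membrane copper importer gene Slc31a1 gave 0.13 ± 0.08 and did not pass.

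Transcription regulators known to act on respiratory genes included genes that rose and genes that fell. Of 10 tested, 4 rose and 3 fell, shares of 40% and 30% beside 27.6% and 28.5% of all tested genes. Pprc1, a coactivator related to PGC-1, had 13.1, 15.9 and 15.6 CPM in DMSO and 49.1 CPM with rotenone, a rise of 1.73 ± 0.12 (adjusted p = 7.9e-10). Gabpb1, the activating subunit of GABP, rose by 0.82 ± 0.13, Nrf1 by 0.50 ± 0.10 and Esrra by 0.20 ± 0.08, and the DNA-binding subunit gene Gabpa gave -0.15 ± 0.08 and did not pass. Ppargc1b, the coactivator PGC-1 beta, had 250, 236 and 220 CPM in DMSO and 82.4 CPM with rotenone, a fall of 1.51 ± 0.08 (adjusted p = 2.8e-11). Gabpb2 fell by 0.69 ± 0.08 and Yy1 by 0.25 ± 0.07. Ppargc1a, the coactivator PGC-1 alpha, gave -0.08 ± 0.09 and Esrrg 0.34 ± 0.22, and neither passed. Both passed as higher with the length and GC offset (0.23 and 0.52). With the length and GC offset the calls for Esrra (0.13, adjusted p = 0.22) and Yy1 (-0.13, adjusted p = 0.13) were lost.

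**Figure D5:**
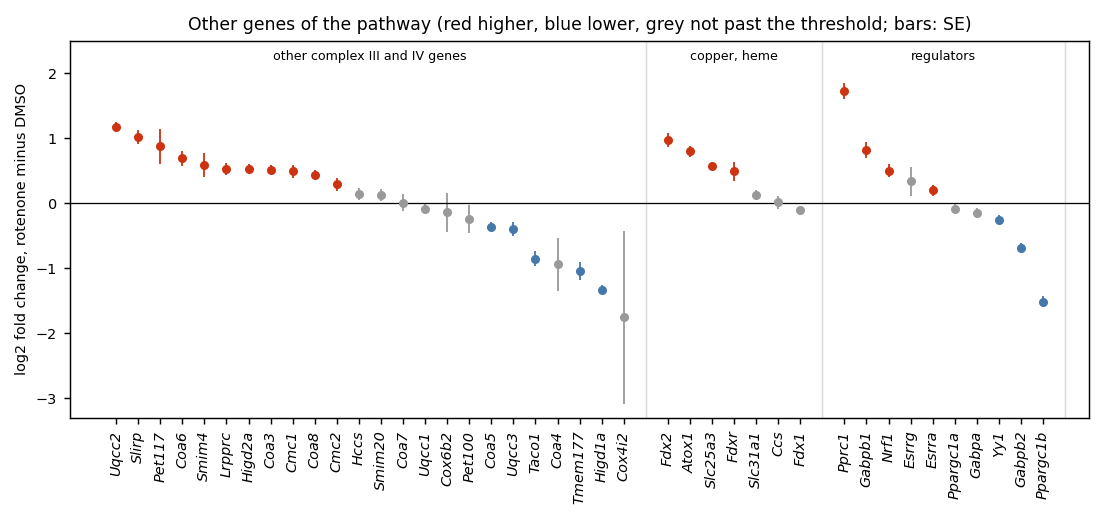
Log2 fold change, rotenone minus DMSO, with its standard error for the tested genes of 3 further lists: other complex III and IV genes, copper and heme supply, and transcription regulators. Red rose, blue fell and grey did not pass an adjusted p of 0.05; the widest bar is that of Cox4i2, which had 2 counts in the rotenone library.

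Values of the neighbouring complexes are given side by side with those of the members, whose median was 0.28 (0.16 with the length and GC offset). Of 36 nuclear subunits of complex I, the target of rotenone, 30 rose and 1 fell, with a median of 0.44 (0.23 with the length and GC offset), and all 15 tested subunits of ATP synthase rose, with a median of 0.38 (0.27 with that offset). Of all tested genes, 27.6% rose and 28.5% fell. With that offset fewer subunits of both complexes passed as higher, and more of complex I passed as lower. These lists share the same libraries with the members, and the difference between lists was not tested.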

How the data were processed

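RNA of brown adipocytes was sequenced on an Illumina HiSeq X instrument from NEBNext Ultra RNA libraries, per the labels' protocols. The authors deposited raw read counts per gene, 1 file per sample; the submitters' processing notes name TopHat2 and mm10. The counter, its annotation and its strand setting were not given in the sources used here. The 3 rotenone files were identical and entered once, so 1 rotenone library was compared with 3 DMSO libraries, with 2 residual degrees of freedom.

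Counts were fitted with edgeR 4.0.16 (R 4.3.3): TMM scaling, default filterByExpr (14709 genes tested), robust quasi-likelihood F test, and Benjamini-Hochberg adjustment over all genes tested with a threshold of 0.05. CPM values use TMM-scaled library sizes, with factors of 0.9393 for rotenone and 1.015 to 1.024 for DMSO. Exon and transcript lengths came from GENCODE M21 on GRCm38, which gave a length for 24921 genes. Near-identical copies were searched with blastn 2.17.0 over at least 80% of the coding sequence at 85% identity. Isoform ratios were tested by exact permutation over libraries. The fits were also run on simulated counts with known fold changes, in which the rotenone library was given the same variation as the DMSO libraries. Such a run cannot check that assumption or the calls made in these data.

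Alternatives were DESeq2 1.42.0, limma 3.58.1 (voom), other scalings and filters, a non-robust prior, an assumed coefficient of variation of 20% (likelihood ratio test), an offset per length and GC bin (8 by 8), library sizes without the ribosomal RNA precursor gene Rn45s, a pseudocount of 0.5 in the ratios, and leaving out each DMSO library. Members and gene lists were chosen with earlier results of these data known. Values in every library are given for isoform partners, for the 3 largest rises and falls in each role, and for the largest changes in the other lists (up to 4 in each direction are named). Cell type lists covered adipocytes, brown adipocytes, preadipocytes and fibroblasts, skeletal muscle, macrophages and endothelium.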

Additional observations from a re-analysis of the deposited data

How the results depend on the processing

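With 1 rotenone library, no setting tests the spread between rotenone cultures. No paired analysis was possible because the 3 rotenone files hold 1 library. The assumed coefficient of variation of 20% moved the counts most, to 1408 genes higher and 2063 lower over all genes, to 2 members higher and 0 lower, to 1 subunit higher and 0 lower, and to 1 assembly factor higher and 0 lower; 29 member calls were lost. That setting changes both the spread and the test, and the cause was not tested. The median log2 fold change of the members was 0.23 with upper quartile scaling, 0.16 with library size only and 0.16 with the length and GC offset, where the medians of all genes were -0.08, -0.16 and -0.01. Assembly factors that fell numbered 4 with library size only, 4 with every deposited file taken as independent and 4 with the length and GC offset, which also gave 7 members lower and a change of 0.09 in the Cox7a1 to Cox7a2 ratio; the cause was not tested. At an adjusted p of 0.01, 1 subunit was lower. With the longest transcript as length, the DMSO ratio of Cox7a1 to Cox7a2 was 0.29. Signs turned for Cox20 (0.002 with median-ratio scaling, 0.001 without DMSO replicate 3 in a range of -0.03 to 0.001, 0.002 with DESeq2), Sco2 (0.06 without DMSO replicate 2, in a range of -0.12 to 0.06 over the libraries left out), Cox7a2l (-0.06), Cox19 (-0.04) and Ttc19 (-0.04) with library size only, and Cox7a1 (-0.02), Cox7a2 (-0.11), Cox7a2l (-0.16) and Sco1 (0.11) with the length and GC offset. Leaving out each DMSO library gave 3977 to 4173 genes higher and 4076 to 4193 lower, 26 to 27 members higher and 4 to 5 lower, 21 to 22 subunits higher, 2 to 3 assembly factors lower, a members' median of 0.26 to 0.29, and changes of 0.79 to 0.95, 0.04 to 0.06 and 0.03 to 0.20 in the Cox6a2, Cox7a1 and Cox8b ratios. With a filter of a mean of at least 1 CPM and without Rn45s, all 40 members kept their direction and side of the threshold. Depth limits Cox4i2, Dio2 and the markers at 0.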
